A study of Mus musculus with 3 samples.

Results

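MicroRNA (miRNA) signals were compared between mouse bone marrow-derived dendritic cells (BMDCs) kept beside ID8 ovarian tumour cells and control BMDCs. The members were the probes of the array that carry a mouse miRNA name, 579 of the 1408 probes, which give 568 distinct names. Of these names, 165 entered a ratio because their intensity above background was 50 units or more, the floor used here, on both arrays. A further 25 reached the floor on the ID8 array alone and 9 on the control array alone, and these are given as bounds. The remaining 369 were under the floor on both arrays and gave no ratio.

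BMDCs are antigen-presenting cells grown from marrow in culture. In the ID8 group they shared a transwell plate, in which a porous membrane keeps the cell types apart, with ID8 cells, a mouse ovarian tumour line, for 24 h in medium with 3% foetal serum and antibiotics. The control group is labelled only as control BMDCs: the sources used here do not give its plate, its serum or how long it was cultured, so the presence of tumour cells and any other difference in culture cannot be told apart. Another group, BMDCs beside CT-26 colon carcinoma cells under the conditions of the ID8 group, is quoted as a level only. Levels in units, for all arrays, are given before any scaling between arrays. The strain, the age of the animals, the number of marrow donors and the cytokines used to grow the cells are not given either. Each group had 1 array, with no replicate, so every ratio describes a pair of arrays and no test was made.

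MiRNAs are short RNAs cut from hairpin precursors. One arm of the hairpin is usually loaded into an Argonaute protein, where bases 2 to 8, the seed, select the messenger RNAs to be repressed, and the other arm, starred in the older names used on this array, is mostly degraded. In dendritic cells and macrophages, miR-155 and miR-146a are induced through NF-kB downstream of Toll-like receptors: miR-155 represses brakes on inflammatory signalling such as Socs1, and miR-146a represses the signalling proteins Traf6 and Irak1. miR-21 is induced in many activated and transformed cells and represses Pdcd4. miR-223 and the arms of miR-142 are made mainly in blood cells, and miR-22 is abundant in myeloid cells.

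The miRNAs on which the comparison turns are shown first, because several share a seed and a few nearly share a whole sequence, and a capture probe may then collect more than 1 of them. Sequences and positions are from RefSeq (mouse assembly GRCm38.p6), 5′ to 3′, with the seed in capitals. Each lies in the miRNA gene of its own name. The first set is the miRNAs whose signal was at least 2-fold higher on the ID8 array, and miR-16 is encoded at 2 loci, on chromosomes 14 and 3.
miR-22 (chr11:75463772-75463793, plus strand): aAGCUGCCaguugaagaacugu
miR-146a (chr11:43374435-43374456, minus strand): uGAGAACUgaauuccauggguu
miR-146b (chr19:46342790-46342811, plus strand): uGAGAACUgaauuccauaggcu
miR-21 (chr11:86584120-86584141, minus strand): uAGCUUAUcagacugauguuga
miR-155 (chr16:84714143-84714165, plus strand): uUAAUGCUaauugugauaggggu
miR-17 (chr14:115043684-115043706, plus strand): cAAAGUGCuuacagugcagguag
miR-20a (chr14:115044183-115044205, plus strand): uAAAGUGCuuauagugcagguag
miR-142-5p (chr11:87756867-87756887, plus strand): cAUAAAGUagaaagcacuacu
miR-16 (chr3:69009918-69009939, plus strand): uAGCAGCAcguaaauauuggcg
let-7d (chr13:48536078-48536099, minus strand): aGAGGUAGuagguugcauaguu
miR-674 (chr2:117185151-117185172, plus strand): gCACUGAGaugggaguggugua
The second set is drawn from the miRNAs whose signal was at least 2-fold lower, of which miR-486 is named only.
miR-24-2* (chr8:84208839-84208860, plus strand): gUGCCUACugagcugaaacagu
miR-433* (chr12:109591729-109591750, plus strand): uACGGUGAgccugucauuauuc
miR-673-3p (chr12:109572044-109572066, plus strand): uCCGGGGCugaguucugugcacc
miR-708 (chr7:96249450-96249472, plus strand): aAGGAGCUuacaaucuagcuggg
miR-28* (chr16:24827908-24827929, plus strand): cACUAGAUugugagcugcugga
miR-370 (chr12:109618305-109618326, plus strand): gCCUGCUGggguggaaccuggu
miR-138, lower as well and encoded at 2 loci, reads as follows at the copy on chromosome 8.
miR-138 (chr8:94324312-94324334, plus strand): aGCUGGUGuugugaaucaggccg
miR-146a and miR-146b share a seed and differ at 2 of 22 bases. miR-17 and miR-20a share a seed and differ at 2 of 23 bases. The other sequences shown each have a seed of their own within these sets.

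Cell type markers and reference probes are given first. The 7 miRNAs used as myeloid markers were miR-223, miR-142-3p, miR-142-5p, miR-22, miR-21, miR-146a and miR-155. Of these, 5 reached the floor on the control array and 7 on the ID8 array, and their summed normalized intensity was 2.53 and 6.67. miR-142-5p, miR-22, miR-21 and miR-146a are among the miRNAs called higher below, and miR-155 has a bound past 2-fold. The rise in the sum is therefore part of the result and no separate check. On the control array miR-223 read 49 units and miR-155 read 49.5 units, both just under the floor. Markers of other cell types were counted in the same way: 0 of 4 lymphoid markers on the control array and 1 of 4 on the ID8 array were above the floor (summed 0.239 and 0.227), 1 of 5 erythroid and megakaryocyte markers on each (0.426 and 0.308), 2 of 10 epithelial markers on each (0.81 and 0.638) and 1 of 6 mesenchymal markers on each (1.27 and 1.00). At or below 0 units on the control array were the lymphoid miR-181c, the megakaryocyte miR-126-3p and miR-126-5p, the epithelial miR-205 and miR-429 and the mesenchymal miR-10b and miR-199a-5p. The highest marker on the control array outside the myeloid list was the mesenchymal miR-214, at 1.20 in normalized intensity there and 0.94 on the ID8 array. The part of other cell types in the ratios was not tested. In RNA of a whole culture, fewer cells of a type and less RNA per cell cannot be told apart. The array carries 40 Hy3 marker spots, named for the dye that labels the RNA. At all 40 the raw intensity of the ID8 array exceeded that of the control array by 1.75 to 4.75 units, at spots of 3027 to 5812.25 units on the control array, whereas the CT-26 array differed from the control array by between −1409 and 466.25 units at the same spots. Of 150 other probes with a raw intensity of at least 500 units on the control array, 2 were within 5 units of the ID8 array. The reason for the near-identical marker spots was not tested, and they give no measure of error between these arrays. The U6-snRNA-2 probe, for a spliceosomal RNA that serves as a reference in many assays, read 2521.75 units on the control array and 7445.25 on the ID8 array, a log2 ratio of 1.27 in normalized intensity, and the small nucleolar RNA probe SNORD3@ had a log2 ratio of 0.33.

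Most measured miRNAs were similar on both arrays, and a small group stood apart. The log2 ratio of normalized intensity, ID8 over control, had a median of 0.02 over the 165 miRNAs, with quartiles of −0.27 and 0.30. A total of 89 were above 0 and 76 below, and 138 (83.6%) lay within 1.5-fold of equality. At the 2-fold threshold 8 were higher (4.85% of 165) and 5 lower (3.03%). At 1.5-fold the counts were 15 higher (9.09%) and 12 lower (7.27%). The spread differed with intensity: in 4 groups of nearly equal size, formed by ordering the 165 by mean intensity, the SD of the log2 ratio over miRNAs was 0.59, 0.78, 0.48 and 0.35 from dimmest to brightest, and the brightest group, from 946 units up, held 0 of the 13 miRNAs past 2-fold. The 174 array probes with no name that were above the floor on both arrays give a second view of that spread. Their median log2 ratio was 0.03 and their SD 0.44, with 4 of them higher by 2-fold or more (2.3%) and 3 lower by as much (1.72%).

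The counts depended on the scaling between arrays. The authors' normalization divides each array by a constant. With no normalization 12 miRNAs passed 2-fold upwards and 4 downwards, and the median of all 165 moved up by 0.29 on the log2 scale. Scaling to SNORD3@ gave 3 higher and 10 lower and moved the median by −0.33. Scaling to U6-snRNA-2 gave 1 higher (miR-22) and 117 lower and moved it by −1.27. The values that follow use the authors' normalization, and the order of the log2 ratios is the same under any constant.

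**Figure D1:**
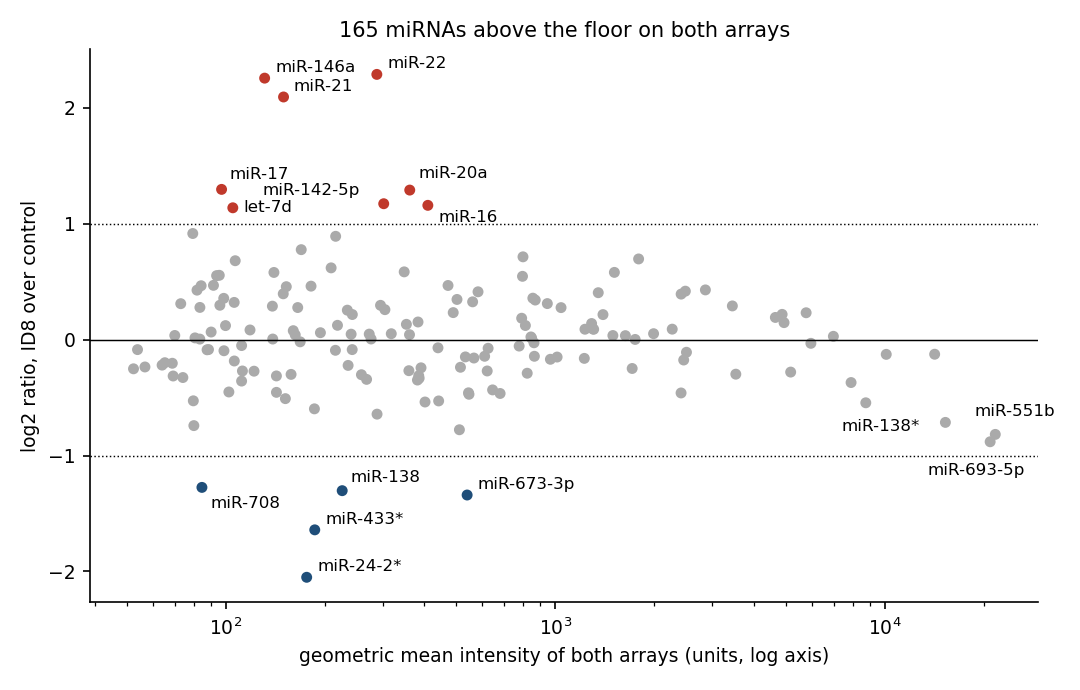
Log2 ratio of normalized intensity (ID8 over control, y axis) against the geometric mean of the background-subtracted intensities of both arrays (x axis, log scale) for the 165 miRNAs above the floor on both; each point is 1 miRNA, 1 array per group. The 8 miRNAs higher by 2-fold or more (red) and the 5 lower by as much (dark blue) lie below 946 units, and the brightest probes, miR-551b and miR-693-5p, lie between the dotted 2-fold lines.

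The higher group was led by miR-22, miR-146a and miR-21. miR-22, which represses Tet2 in mouse blood cells, read 117.5 units on the control array and 703.25 on the ID8 array, a log2 ratio of 2.29. miR-146a, the NF-kB-induced repressor of Traf6 and Irak1, read 54.25 and 317.5 units (log2 ratio 2.26). miR-21 read 65.5 and 342.5 units (2.09). All 3 were dim on the control array, with miR-146a barely over the floor and under 1 negative control probe (59 units). On the ID8 array they were of middling brightness. On the CT-26 array they read 571.5, 204.75 and 274.5 units, each between the control and ID8 values.

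miR-155 belongs with them but has only a bound. Its probe read 49.5 units in the control, 258.5 beside ID8 and 201.5 beside CT-26, so it was at least 4.20-fold higher on the ID8 array. miR-146b, made from another gene than miR-146a, read 33.5 and 126.75 units and was at least 2.06-fold higher. miR-674 read 44 and 142.75 units and was at least 2.32-fold higher. These were the 3 of 25 miRNAs above the floor on the ID8 array alone (12%) whose bound reached 2-fold.

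miR-223, the miRNA that restrains granulocyte activity in mice, lay just outside that threshold. It read 49 units in the control, 122 beside ID8 and 125.5 beside CT-26, and was at least 1.98-fold higher. A further 13 miRNAs above the floor on the ID8 array alone had bounds from 1.04-fold to 1.68-fold. They included let-7i (1.68, with both its probes above the floor on the ID8 array), miR-27a (1.64), miR-222 (1.53), which represses Kit, miR-18a (1.48), miR-26a (1.43) and miR-93 (1.19). The erythroid miRNA miR-451 (at least 1.14-fold higher, 33.25 and 70 units) and the lymphoid miRNA miR-150 (at least 1.04-fold higher, 47.5 and 64.25 units) were among them too. The last 8 of the 25, among them miR-147, miR-106a and miR-183, were so close to the floor that no bound above 1 could be given.

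miR-142-5p and miR-16 completed the higher group among miRNAs abundant in blood cells. miR-142-5p read 181.5 units in the control, 501.25 beside ID8 and 752.25 beside CT-26, and its log2 ratio of ID8 over control was 1.17. miR-16, which represses Bcl2 and cell cycle genes, read 248.25 and 679 units (1.16).

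miR-17 and miR-20a, from the polycistronic miR-17-92 cluster that promotes growth and represses the death gene Bcl2l11, were higher by nearly the same factor. miR-17 had 56 units in the control, 168.5 beside ID8 and 153.75 beside CT-26, a log2 ratio of 1.30. miR-20a read 209, 626.25 and 557.25 units, a log2 ratio of 1.29. In normalized intensity the CT-26 array was not below the ID8 array: miR-17 read 0.423 beside ID8 and 0.459 beside CT-26, and miR-20a 1.57 and 1.66. Their probes may share signal, given the 2 bases that separate them. The 4 products of the cluster that reached the floor on at least 1 array span chr14:115043684-115044205. The other arm of the miR-17 hairpin, miR-17*, read 70 and 125.75 units (0.55), and miR-18a read 49.5 and 91 units, at least 1.48-fold higher.

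The seed of miR-17 and miR-20a is shared by paralogs at other loci. miR-106b, from chr5:138165574-138165807, read 103.5 and 189.5 units (log2 ratio 0.58), and its neighbour miR-93 was above the floor on the ID8 array alone, at 34.25 and 73 units. Over the list of 14 members of the miR-17-92 cluster and its paralogs, 3 were measured on both arrays, 3 reached the floor on the ID8 array alone and 8 on neither. The 3 measured had a median log2 ratio of 1.29, which is 1.27 above the median of all 165 miRNAs. With U6-snRNA-2 scaling 2 of the 3 stayed above 0, and 0 of the 3 stayed at least 2-fold higher. The list left out starred arms that were measured and had lower ratios: miR-17* (0.55), miR-106b* (−0.18) and miR-20b* (−0.36).

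let-7d was the last of the higher group and had the largest ratio among the 6 let-7 members measured on both arrays, let-7i having only a bound. The let-7 miRNAs repress growth genes such as Hmga2 and the Ras genes, and their maturation is blocked by Lin28. They are shown together because the measured members differ from let-7a by 1 or 2 bases outside the seed. let-7c and let-7f are each encoded at 2 loci, and the position given is 1 of them.
let-7a (chr13:48538239-48538260, minus strand): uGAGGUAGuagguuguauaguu
let-7c (chr15:85706616-85706637, plus strand): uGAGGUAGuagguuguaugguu
let-7d (chr13:48536078-48536099, minus strand): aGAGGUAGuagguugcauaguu
let-7e (chr17:17830366-17830387, plus strand): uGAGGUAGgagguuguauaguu
let-7f (chr13:48537889-48537910, minus strand): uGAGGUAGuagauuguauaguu
let-7g (chr9:106178846-106178867, plus strand): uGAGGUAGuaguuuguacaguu
let-7d had 64 units in the control, 172.5 beside ID8 and 116 beside CT-26, a log2 ratio of 1.14, on 1 of its 2 probes, and its other probe read 3.75 and 4.5 units. let-7a read 152.25 and 286.5 units (0.62), and let-7g read 1117 and 2046 units (0.58). The log2 ratio was 0.42 for let-7e, 0.40 for let-7f and 0.39 for let-7c. let-7f and let-7g also rest on 1 of 2 probes. The other probe read −6 and −3 units for let-7f and 2 and 3.75 units for let-7g. All 6 measured of 9 listed let-7 members were thus above 0, beside 89 of all 165. Of the 6, 1 was past 2-fold, beside 4.85% higher over all 165. With U6-snRNA-2 scaling 0 of the 6 were above 0. Their median was 0.50, or 0.48 above the median of all 165. Given how few bases separate them, the 6 probes may share signal.

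miR-16 stood above the rest of its seed family. The family shares the seed that miR-16 shows above, and its members restrain the cell cycle. miR-15a, which lies beside a copy of miR-16 at chr14:61631894-61632096, read 117.75 and 198 units (log2 ratio 0.46). miR-15b, which lies beside the other copy at chr3:69009775-69009939, read 102.75 and 121.5 units (−0.05). miR-195 was at 0.04, miR-322 at −0.09 and miR-497 at −0.45. The family list, with miR-503 added, had 7 of 7 members on the array measured. Of these, 1 was at least 2-fold higher, beside 4.85% of all 165. The median log2 ratio of the list was 0.04, which is 0.02 above that of all 165.

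miR-503, from the X-linked cluster with miR-322 and miR-351, was the brightest probe among those at least 1.5-fold higher. It read 1271 units in the control, 2522.75 beside ID8 and 2467.75 beside CT-26 (log2 ratio 0.70). In normalized intensity it read 6.33 beside ID8 and 7.36 beside CT-26. The measured products of the cluster span chrX:53053315-53054327. Among them, miR-351 was at 0.35, miR-322 at −0.09 and the other arm of the miR-503 hairpin, miR-503*, at −0.37. Products of this cluster therefore lay on both sides of 0.

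The other miRNAs between 1.5-fold and 2-fold higher were miR-652 (log2 ratio 0.92), miR-26b (0.89), miR-465b-5p (0.78), the muscle miRNA miR-1 (0.71), miR-29a (0.68), which represses collagen genes, and let-7a. miR-652 read 52.25 and 120.75 units, next to the floor on the control array, and was the nearest miRNA under the 2-fold threshold, with let-7d the nearest above it. miR-26b, which represses the histone methyltransferase Ezh2, read 143 and 325 units, and miR-26a, with the same seed, was above the floor on the ID8 array alone at 35.25 and 88.25 units. miR-29a read 76.25 and 149.75 units.

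**Figure D2:**
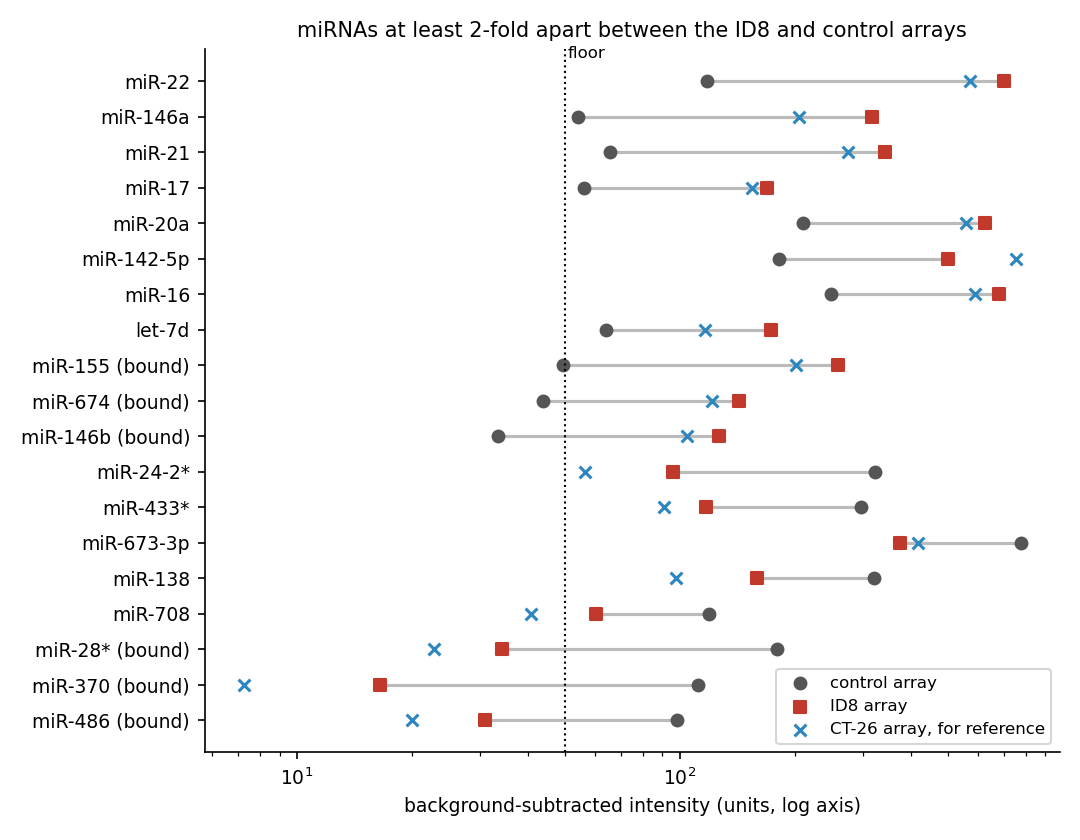
Background-subtracted intensity (x axis, log scale) of the 13 miRNAs at least 2-fold apart and of the 6 with a bound of at least 2-fold, on the control (circle), ID8 (square) and CT-26 (cross) arrays, 1 array each; the dotted line is the floor of 50 units. The 8 measured higher miRNAs read 54.25 to 248.25 units on the control array and 168.5 to 703.25 on the ID8 array.

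The lower group held 3 starred or 3p products and 2 main products. miR-24-2* comes from the miR-23a/27a/24-2 cluster, whose products above the floor on at least 1 array span chr8:84208685-84208896. It read 323.75 units in the control, 95.75 beside ID8 and 56.5 beside CT-26, a log2 ratio of −2.05. miR-433* read 297.25, 116.75 and 90.75 units (−1.64 for ID8 over control). miR-673-3p read 776.75, 375.75 and 418.5 units (−1.34). The last 2 lie in the imprinted Dlk1-Dio3 region of chromosome 12, whose miRNAs are transcribed from the maternal copy.

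miR-138, known in rat neurons for limiting the size of dendritic spines, read 320.25 units in the control, 159 beside ID8 and 97.75 beside CT-26 (log2 ratio −1.30). It has 2 probes, and the other read 5 and 3.25 units. miR-708 read 119, 60.25 and 40.75 units (−1.28), near the floor on the ID8 array, and was the nearest of the lower group to the threshold, with miR-693-5p (−0.88) the nearest outside it. For 4 of these 5 the CT-26 array was lower still than the ID8 array, the exception being miR-673-3p.

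miR-28* had the widest bound in the lower direction. It read 179.5 units in the control, 34.25 beside ID8 and 22.75 beside CT-26, and was at least 4.40-fold lower on the ID8 array. miR-370, also of the Dlk1-Dio3 region, read 111.25 and 16.5 units and was at least 2.73-fold lower. miR-486, an erythroid and muscle miRNA, read 98.5 and 31 units and was at least 2.41-fold lower. These were 3 of the 9 miRNAs above the floor on the control array alone (33.3%). The other 6 (miR-338-5p, miR-29b*, miR-717, miR-27a*, miR-293 and miR-719) had bounds from 1.27-fold to 1.86-fold lower, and none of their probes exceeded 75.75 units on either array.

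Of the 10 brightest miRNAs on the control array, 9 had a log2 ratio below 0, beside 76 of all 165. The 10 were picked on the control array, a choice that by itself favours ratios below 0. The count also depends on the scaling. With no normalization every log2 ratio rises by 0.29, which puts miR-483, miR-883a-5p, miR-30c-2* and miR-34b-3p above 0. Brightness depends on the probe as well as on the amount of miRNA, so it gives no order of abundance. miR-551b read a normalized intensity of 79.9 on the control array and 45.3 on the ID8 array (log2 ratio −0.82), miR-693-5p 78.8 and 42.8 (−0.88), and miR-138* 54.4 and 33.2 (−0.71). These 3 made up 31.4% of the summed normalized intensity of the 165 measured miRNAs on the control array and 20.8% on the ID8 array, and the 10 brightest on the control array 57.4% and 47.1%. Quantile normalization, which gives both arrays the same distribution, put miR-551b and miR-693-5p at 0.0 and miR-138* at −0.30. Others of the brightest were nearer to equality: miR-483 was at −0.13, miR-883a-5p at −0.13, miR-582-3p at 0.03 and miR-30c-2* at −0.03, whereas miR-667 was at −0.55. The remaining miRNAs between 1.5-fold and 2-fold lower were miR-574-5p (−0.78), miR-705 (−0.74), miR-761 (−0.64) and miR-361 (−0.60).

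The arms of a hairpin are cut from the same transcript, and 24 pairs had both arms measured, with miR-24 paired to each of its 2 starred arms and probes that name several miRNAs left out. In 6 pairs the unstarred or 5p arm exceeded the other arm by at least 1 in log2 ratio, and in 0 pairs was it the reverse. The median size of the difference was 0.37, and 13 of the 24 pairs agreed within 0.5. In 9 pairs the arms lay on opposite sides of 0. In 16 of the 24 pairs the other arm read brighter than the unstarred or 5p arm on both arrays, although starred arms are mostly degraded. Brightness depends on the probe as well, so these readings do not show which arm was more abundant. The reason for the brighter readings was not tested.

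The pairs that differed by at least 1 held 4 of the higher miRNAs, whose other arms are shown beside the sequences given above.
miR-22* (chr11:75463734-75463755, plus strand): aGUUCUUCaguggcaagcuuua
miR-21* (chr11:86584082-86584103, minus strand): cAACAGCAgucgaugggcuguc
miR-142-3p (chr11:87756903-87756925, plus strand): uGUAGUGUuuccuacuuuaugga
let-7d* (chr13:48536024-48536045, minus strand): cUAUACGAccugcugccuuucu
miR-22 had a log2 ratio of 2.29 and miR-22* of 0.46, the latter from 64.75 units on the control array and 109.5 on the ID8 array. miR-21 was at 2.09, and miR-21* at 0.28 from 855 and 1268.5 units. miR-142-5p was at 1.17, and miR-142-3p at 0.13 from 305 and 409.5 units. The last pair is opposed in sign: let-7d was at 1.14, and let-7d* at −0.53 from 86.5 and 73.5 units. The higher miRNAs were picked for a high ratio, a choice that by itself favours a lower ratio in the other arm.

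miR-24 and its starred arms differed by hairpin. miR-24 itself, which is cut from hairpins on chromosomes 8 and 13, read 55.75 units on the control array and 58 on the ID8 array (log2 ratio −0.24). miR-24-1*, from the hairpin on chromosome 13, read 821.25 and 823 units (−0.29), against −2.05 for miR-24-2*. The starred arms have the same seed and similar sequences.
miR-24-1* (chr13:63301213-63301235, plus strand): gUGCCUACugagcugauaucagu
miR-24-2* (chr8:84208839-84208860, plus strand): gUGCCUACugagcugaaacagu
From the same cluster as miR-24-2*, miR-27a was above the floor on the ID8 array alone (33.75 and 100.75 units) and miR-27a* on the control array alone (54.25 and 26.25 units).

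**Figure D3:**
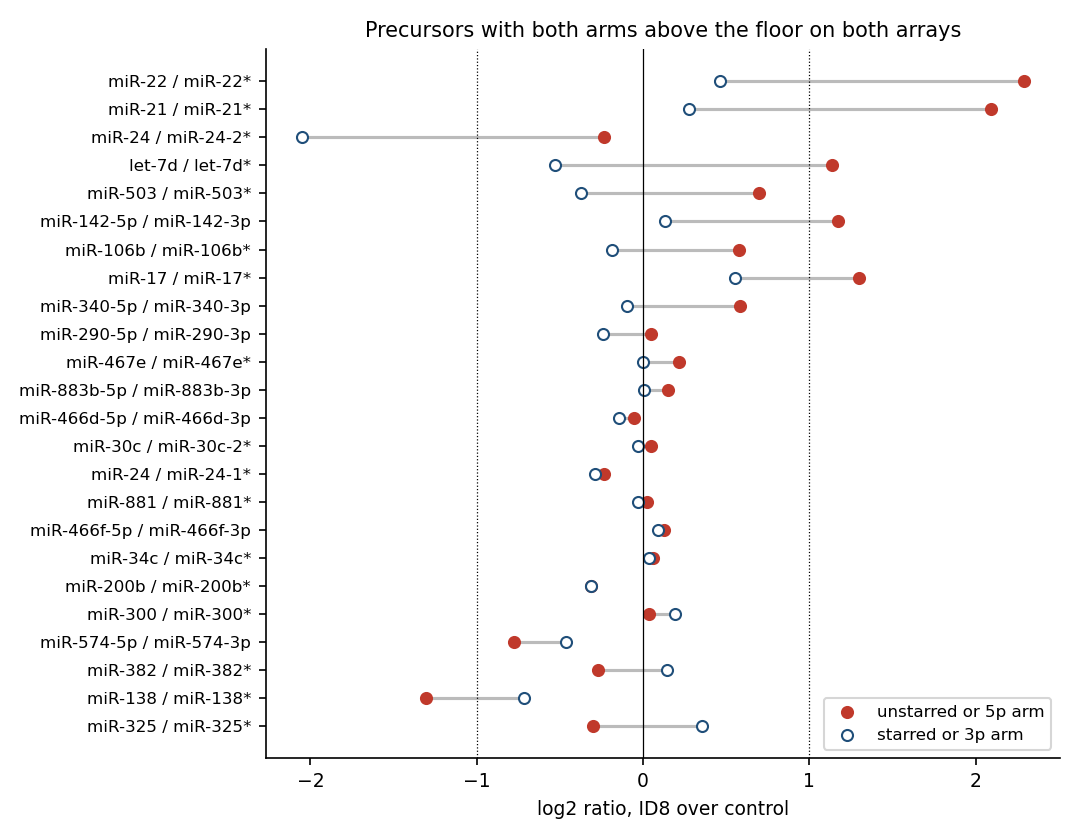
Log2 ratio (ID8 over control, x axis) of the unstarred or 5p arm (filled) and of the starred or 3p arm (open) for the 24 pairs with both arms above the floor on both arrays (probes that name several miRNAs left out), 1 pair per row. The uppermost 6 pairs differ by at least 1, each with the filled point to the right, and 13 pairs agree within 0.5.

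The miRNAs were also counted by lists of known roles. Of 12 myeloid and dendritic cell miRNAs on the array, 9 were measured, of which 4 were at least 2-fold higher (miR-22, miR-21, miR-142-5p and miR-16), 0 lower and 7 above 0, beside 4.85% higher and 3.03% lower over all 165. Their median log2 ratio was 0.70, which is 0.67 above that of all 165. The members not past the threshold were miR-503 (0.70), miR-34a (0.31), miR-142-3p (0.13), miR-322 (−0.09) and miR-24 (−0.24). With U6-snRNA-2 scaling 1 of the 9 was still at least 2-fold higher and 2 were above 0.

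Of 13 miRNAs that respond to NF-kB or Toll-like receptors, 4 were measured: miR-146a and miR-21 were past 2-fold (4.85% of all 165 were), and let-7e (0.42) and miR-125a-5p (0.09) were not. A further 3, miR-155, miR-146b and miR-147, reached the floor on the ID8 array alone. The median of the 4 was 1.26, or 1.23 above that of all 165. Of 17 miRNAs with a described role in dendritic cells, 4 were measured (miR-146a, miR-21, miR-29a and miR-34a), 2 of them higher by 2-fold or more, against the same 4.85%, and their median was 1.39, or 1.36 above that of all 165. Another 5 reached the floor on the ID8 array alone. These lists share miR-146a and miR-21, were drawn up with the data known, and are no independent evidence of a direction.

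Other lists lay near the median or below it. Of the 64 listed miRNAs of the Dlk1-Dio3 region on the array 15 were measured, 0 higher and 2 lower (miR-433* and miR-673-3p, where 3.03% of all 165 were lower). Their median was −0.17, which is 0.19 under that of all 165. The list left out miR-300* (0.19), miR-382* (0.15) and miR-882 (0.09), which were measured and lie in the same stretch of chromosome 12. The median is therefore that of the list and not of the whole region. The p53-responsive list had 5 of 9 measured, 0 past 2-fold and a median of −0.22, with miR-34a at 0.31 and miR-34c at 0.06. Of 24 miRNAs typical of other tissues 6 were measured, with a median of −0.08, miR-1 at 0.71 the highest of them and miR-206 at −0.27 the lowest. miR-200b (−0.31) and miR-194 (−0.25) were the epithelial miRNAs measured and miR-214 (−0.35) the mesenchymal one. The hypoxia-linked miR-103 and miR-107 were at 0.00 and −0.22, and miR-30c was at 0.05.

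**Figure D4:**
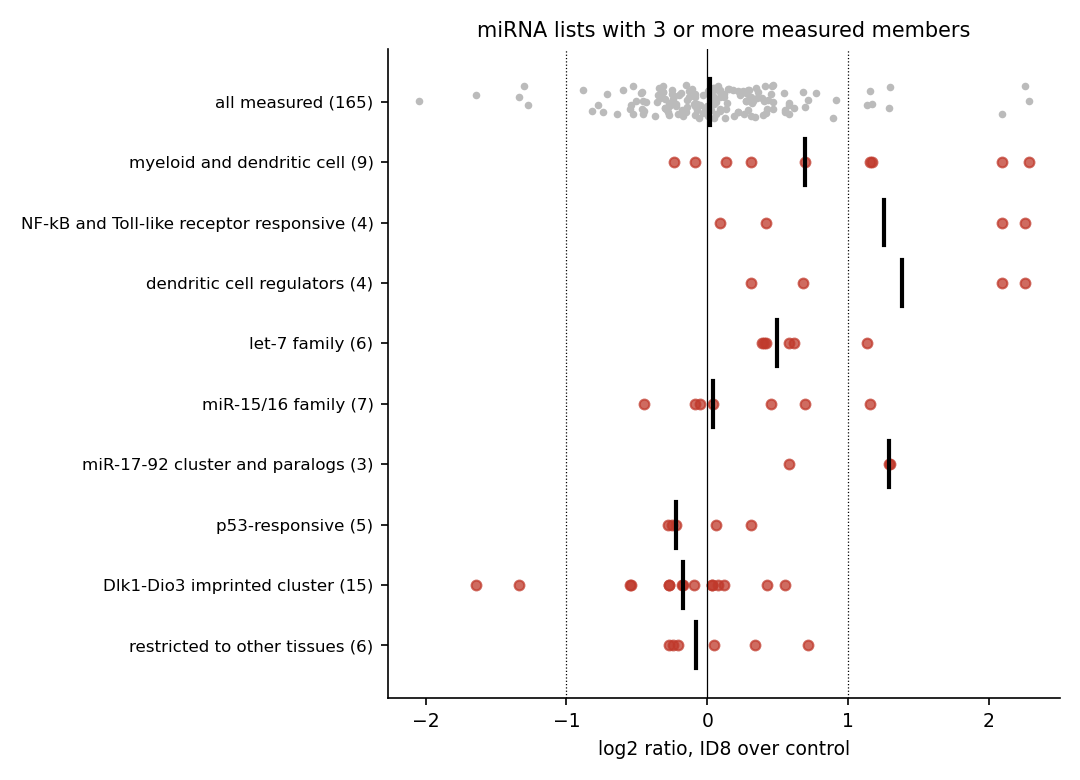
Log2 ratio (ID8 over control, x axis) of every measured member of each list with at least 3 measured members (red, with the number measured in brackets) and of all 165 miRNAs (grey, spread vertically for display); black bars are medians and dotted lines mark 2-fold. The medians range from −0.22 (p53-responsive) to 1.39 (dendritic cell regulators) beside 0.02 for all.

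The higher miRNAs held less G and C than the measured miRNAs at large, a property that the choice of members did not use. Among the 126 measured miRNAs matched to a RefSeq mature sequence, G and C made up a median of 47.8% of the bases. For the 8 higher miRNAs the share ran from 33.3% to 47.8%, with a median of 40.9%, and for the 5 lower ones from 45.5% to 65.2%, with a median of 50%. Of 38 miRNAs with a share under 45%, 5 were higher and 0 lower, with a median log2 ratio of 0.24. Of 46 with a share from 45% to 50%, 3 were higher and 3 lower (median −0.06), and of 42 with a share over 50%, 0 were higher and 2 lower (median 0.01). Across the 126, Spearman's rho between this share and the log2 ratio was −0.31. The points share both arrays and the hybridisation, and the part of base composition in the ratios was not tested.

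**Figure D5:**
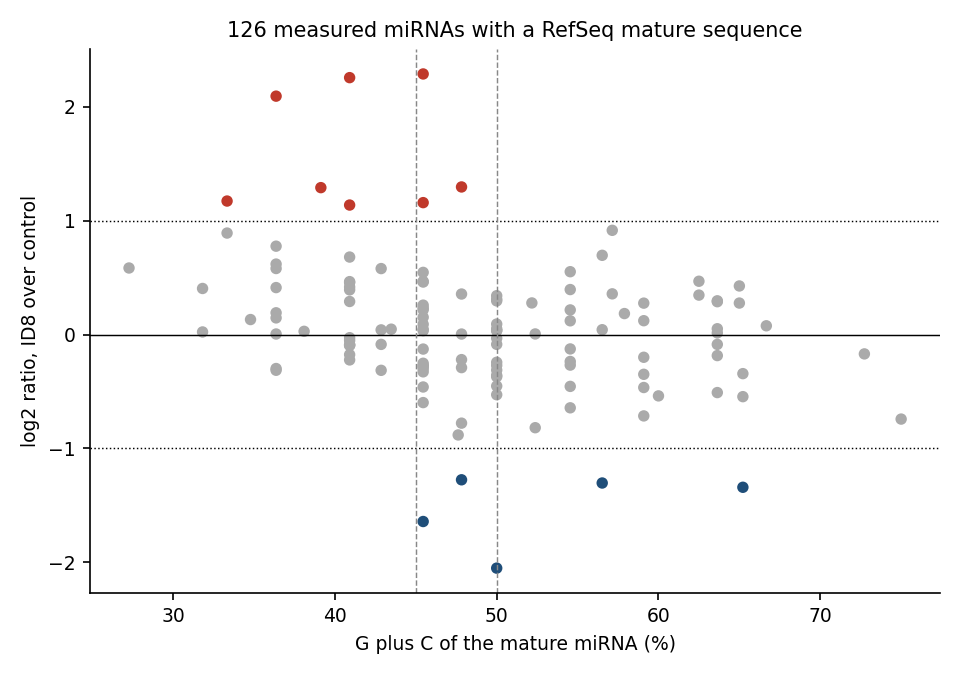
Log2 ratio (ID8 over control, y axis) against the percentage of G and C in the mature sequence (x axis) for 126 measured miRNAs; red points are higher by 2-fold or more, dark blue points lower by as much, dotted lines mark 2-fold and dashed lines 45% and 50%. All 8 higher miRNAs lie at 47.8% or less and 0 of the 42 miRNAs over 50% are among them.

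The array row of a probe was examined as well. By array row the probes fall into 8 blocks, whose median log2 ratios ran from −0.16 to 0.23. The 8 higher miRNAs lay in 5 of the 8 blocks, 3 of them in the same block. Of 10 names with more than 1 probe, miR-185 alone had 2 probes above the floor on both arrays. The brighter read 6249.5 and 9136 units (log2 ratio 0.25) and the dimmer 93 and 97.25 units (−0.23), so the probes of this miRNA differed by 0.48 between themselves.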

How the data were processed

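Total RNA was labelled with the dye Hy3 and hybridised to Exiqon miRCURY arrays of locked nucleic acid probes, 1 array per group, and scanned with a GenePix 4000B, per the labels' protocols and the design text. The deposited table holds raw, corrected and normalized intensity for each probe, per the file headers. From the values, corrected intensity is raw minus local background. The authors' normalized intensity is corrected intensity divided by 1 constant per array (325 for control, 398.25 for ID8, 335.25 for CT-26). The constant is, by value, the median over mouse probes that reach 50 on all 3 arrays. The series matrix holds the same normalized values (largest difference 0) on a linear scale. Its column medians over all probes were 0.0277 for control, 0.0226 for ID8 and 0.0231 for CT-26. The median background was 57.75 units on the control array and 49.5 on the ID8 array, the brightest of 21 empty spots read 6 and 1.75 units, and 0 probes were saturated. Of 8 negative control probes, 1 was above the floor on the control array, at 59 units (48.5 on the ID8 array). miR-146a, miR-17 and miR-652 read less than that probe on the control array. Of 10 viral miRNA probes, 6 were above the floor on both arrays, the brightest at 3323 and 5068.75 units. A reading just above the floor is therefore no proof of detection. The table spells the tumour line 1D8, and its column was taken as ID8 because it equals that sample's values in the series matrix.

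Ratios were log2 of normalized intensity, ID8 over control, for names with a corrected intensity of at least 50 on both arrays, with probes of a name averaged on log2. Where 1 array was under that floor, the bright array's value was divided by the smallest normalized intensity above the floor on the other array ("at least N-fold"). No p-value and no error across samples could be had from single arrays, and the number of arrays limits the precision. The calculation was tested on simulated data with less noise than these arrays show and with changes in brighter probes only. That test does not cover calls near the floor. Python 3.11.15, numpy 2.4.6, pandas 2.3.3, and R 4.3.3 with limma 3.58.1 (for normexp) were used. Sequences were matched by name, through a hand-made map of old names. miRNAs with a locus on a chromosome that was set aside were left out, which gave 155 of 199 miRNAs above the floor on either array. The measured miR-1 and miR-122 are not among the 155. Clusters join miRNAs of the same strand within 10000 bases. The positions given for them span only products above the floor with a matched sequence.

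The members and the 17 lists were chosen with earlier results of these data known. Named miRNAs are those past 1.5-fold or with a bound, the 10 brightest, list members, names with several probes or both arms measured, and those next to a threshold. Alternatives were other scalings, floors of 100, 200 and none, an offset of 50, normexp, single probes, and thresholds of 1.5-fold and 4-fold.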

Additional observations from a re-analysis of the deposited data

Results flagged for a closer look

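Signals outside the mouse miRNA probes were looked at separately. The U6-snRNA-2 probe had a log2 ratio of 1.27, ID8 over control, and the dimmer U6-snRNA-1 probe (61.5 and 116 units) a log2 ratio of 0.62. Among the 174 measured probes with no name, 4 were higher by 2-fold or more and 3 lower by as much, with log2 ratios between −1.48 and 1.86. At the 40 Hy3 marker spots the largest raw difference of the ID8 array from the control array was 4.75 units.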

How the results depend on the processing

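No alternative that divides an array by a constant changes the order of the ratios. It moves the counts at 2-fold, which were 8 higher, 5 lower, and 3 bounds in each direction as reported. Scaling to U6-snRNA-2 gave 1 higher, 117 lower, 0 bounds higher and 9 lower, and turned the sign of 10 named miRNAs: miR-142-5p (−0.10), miR-16 (−0.11) and let-7d (−0.13), which were past 2-fold as reported, and 7 between 1.5-fold and 2-fold higher, now between −0.65 and −0.35. Scaling to SNORD3@ gave 3 higher, 10 lower and 1 bound higher, and no normalization gave 6 bounds higher. A floor of 100 left 4 higher and 3 lower, and one of 200 left 2 and 1 with 0 bounds lower, since fewer miRNAs were measured. With no floor 45 were higher and 50 lower. An offset of 50 gave 1 bound in each direction, as did normexp, which gave 5 higher. The 1.5-fold threshold gave 15 and 12, and the 4-fold threshold 3 and 1. List medians less the median of all moved with no floor for myeloid and dendritic cell miRNAs (1.18), dendritic cell regulators (0.65) and miR-17-92 (0.53), with the offset for miR-17-92 (0.78), and with normexp for dendritic cell regulators (0.90) and miR-17-92 (0.72). The other 85 of 91 list medians moved by less than 0.44, the SD over unnamed probes. Of 271 values of named miRNAs, 231 moved by less than that. The other 40 include the 10 that changed sign under U6-snRNA-2 scaling, and no other alternative changed a sign. Part of these totals was fixed in advance. A constant cannot move a list median less the median of all. Floors of 100 and 200 leave the ratio of each named miRNA still measured as it was. The totals are therefore no measure of robustness. Quantile normalization took miR-551b and miR-693-5p to 0.0. The causes were not tested. Of the 8 higher miRNAs, miR-22 alone stayed past 2-fold with U6-snRNA-2 scaling, miR-22, miR-21 and miR-146a with SNORD3@ scaling, and 7 with quantile normalization (let-7d did not). No paired analysis was possible because each group had 1 array. Depth is limited by signal over background: 34 of the 165 measured miRNAs read under 100 units on the control array.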
